A study of Mus musculus with 6 samples.

Results

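The endoplasmic reticulum unfolded protein response was followed in cultured mouse fetal hepatocytes through 10 genes fixed by name, which were Ern1, Atf6, Eif2ak3, Xbp1, Hspa5, Hsp90b1, Dnajb9, Pdia4, Herpud1 and Sel1l. All 10 of the 18193 genes measured were found on the arrays, through 30 of the 45037 probe sets, and all 10 passed the filter on low intensity. Each gene was read from the probe set that names it alone and has the highest mean, and the 20 other sets served as a check. The study compared Cnot3KO hepatocytes with control hepatocytes, which the labels call wild type, both from embryos at embryonic day 16.5. In the fetal liver the study names hepatoblasts, which can become hepatocytes or cholangiocytes, as the main cells with albumin. In Cnot3KO embryos a floxed Cnot3 allele is removed by Cre recombinase under the albumin promoter, so that cells which express albumin lose Cnot3. The study describes this loss as incomplete in the fetal liver at that age, and Cnot3 as efficiently reduced in the hepatocytes once they had differentiated over days in culture, which is when these samples were taken. The cells of both genotypes were cultured with oncostatin M and dexamethasone and were taken without actinomycin D (ActD), an inhibitor of transcription, or after 6 or 12 h of ActD. There was 1 array for each genotype and time, 6 in all, and whether embryos were pooled for an array is not given in the sources used here.

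Secreted and membrane proteins fold in the endoplasmic reticulum (ER), and the hepatocyte, which secretes most plasma proteins, keeps a large ER. When unfolded proteins accumulate there, sensors in the ER membrane start the unfolded protein response. IRE1 alpha, encoded by Ern1, cuts the Xbp1 mRNA and so allows the active transcription factor to be made. PERK, encoded by Eif2ak3, phosphorylates a translation initiation factor, and ATF6 is cut in the Golgi to release a transcription factor. Their targets are chaperones, folding enzymes and the components of ER-associated degradation (ERAD), which returns misfolded proteins to the cytosol for destruction. Cnot3 belongs to the Cnot deadenylase, which removes poly(A) tails and so marks mRNAs for decay, and the comparisons address how the mRNAs of this response stood with and without Cnot3 and once transcription had been stopped.

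The ATF6 and XBP1 proteins are known to act through the ER stress response element (ERSE), with the letters CCAAT, 9 bases of any kind, and CCACG, and through a related element, ERSE-II, with ATTGG, 1 base of any kind, and CCACG. Promoter windows of 300 bases, from 250 bases before to 50 bases after the start of each gene, were taken from RefSeq on build GRCm38.p6 and searched on both strands. A window was found for 9 of the 10 genes, Atf6 being the one without. ERSE was present in 2 of the 9, Hspa5 and Hsp90b1, and ERSE-II in 1, Herpud1, against 0.119% and 0.0365% of all 32851 promoters. These 3 windows are shown because they carry the known element of this response, with the letters of each match in capitals, and each is read on the strand of its gene.

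Hspa5: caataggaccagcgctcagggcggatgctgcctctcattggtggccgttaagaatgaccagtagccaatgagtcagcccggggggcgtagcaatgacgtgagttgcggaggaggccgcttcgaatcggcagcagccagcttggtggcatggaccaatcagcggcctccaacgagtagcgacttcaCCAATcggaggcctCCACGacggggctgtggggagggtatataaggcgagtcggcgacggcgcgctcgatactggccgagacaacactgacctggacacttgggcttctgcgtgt
Herpud1: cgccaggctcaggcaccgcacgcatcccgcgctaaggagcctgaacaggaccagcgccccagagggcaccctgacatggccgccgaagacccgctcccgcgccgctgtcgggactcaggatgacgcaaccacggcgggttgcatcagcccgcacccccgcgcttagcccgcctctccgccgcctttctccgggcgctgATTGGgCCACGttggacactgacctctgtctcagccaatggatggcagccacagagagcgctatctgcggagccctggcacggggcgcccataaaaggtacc
Hsp90b1: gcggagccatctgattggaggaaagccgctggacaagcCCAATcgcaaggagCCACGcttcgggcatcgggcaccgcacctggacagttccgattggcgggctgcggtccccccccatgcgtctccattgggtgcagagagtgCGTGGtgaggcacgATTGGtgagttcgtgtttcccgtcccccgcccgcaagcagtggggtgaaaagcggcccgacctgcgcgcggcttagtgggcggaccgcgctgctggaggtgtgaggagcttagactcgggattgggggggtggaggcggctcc

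The Hspa5 window is chr2:34771840-34772139 on the plus strand, with 1 ERSE whose first base lies 65 bases before the start. The Herpud1 window is chr8:94386179-94386478 on the plus strand, with ERSE-II from 52 bases before the start. The Hsp90b1 window is chr10:86705395-86705694 on the minus strand, with 1 ERSE in the direction of the gene, from 212 bases before the start, and 1 in the opposite direction, which ends 89 bases before it. None of these matches overlapped another. TGACGTGG, the core that XBP1 is known to bind, was in 0.676% of all promoters and in none of the 9, which says only that these letters are not in the windows. A match is a description of the sequence and not evidence of binding.

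Median intensities of 69.7 to 72.4 were found on the arrays, and any 2 arrays correlated with a Spearman's rho of 0.935 to 0.993. Cnot3 itself had intensities of 174, 174 and 146 in Cnot3KO cells at 0, 6 and 12 h of ActD, against 296, 214 and 158 in control cells, a genotype difference over the 3 times of -0.39 ± 0.18 on the log2 scale (SE, adjusted p = 0.182, limma). Its second probe set differed by -0.05 at 0 h, and where either set lies relative to the deleted part was not determined. Hepatocyte markers were above the array median on every array for all 8 measured of 10 listed, and their summed intensity was 162070 to 170020 in Cnot3KO cells and 160220 to 176170 in control cells. Sums that did not overlap between the genotypes were those of stellate cell and fibroblast markers (8905 to 14107 in Cnot3KO, 17875 to 19202 in control), macrophage markers (15403 to 17674 in Cnot3KO, 18797 to 22937 in control), erythroid and megakaryocyte markers (8160 to 9140 in Cnot3KO, 12289 to 15884 in control) and cholangiocyte markers (34148 to 41376 in Cnot3KO, 19528 to 22792 in control). The cholangiocyte sum does not stand for every gene of its list, which was split in direction. Of the 7 cholangiocyte markers kept, the genotype difference passed upward for 2 and downward for 1 (limma, adjusted p under 0.05). Their median genotype difference was 0.26. By the same test 3 of the 12 macrophage markers passed downward and none upward. Over all genes 0.703% passed upward and 0.285% downward. Endothelial sums overlapped over the 3 times (772 to 1495 in Cnot3KO, 1206 to 2195 in control). Within times, however, the median genotype difference of these markers was -0.62, against -0.03 over all genes. It was -0.65 for stellate cell and fibroblast markers and -0.64 for macrophage markers. Of the endothelial markers 8 of 10 were lower at an unadjusted p under 0.05 (limma), where 11% of all genes were. The part of these cell types in the results below was not tested, and in such bulk samples fewer cells of a type and less RNA per cell cannot be told apart. A value after ActD is relative to the other mRNAs of its array, so a loss shared by all mRNAs is not visible, and a rising value is a rise in share.

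**Figure D1:**
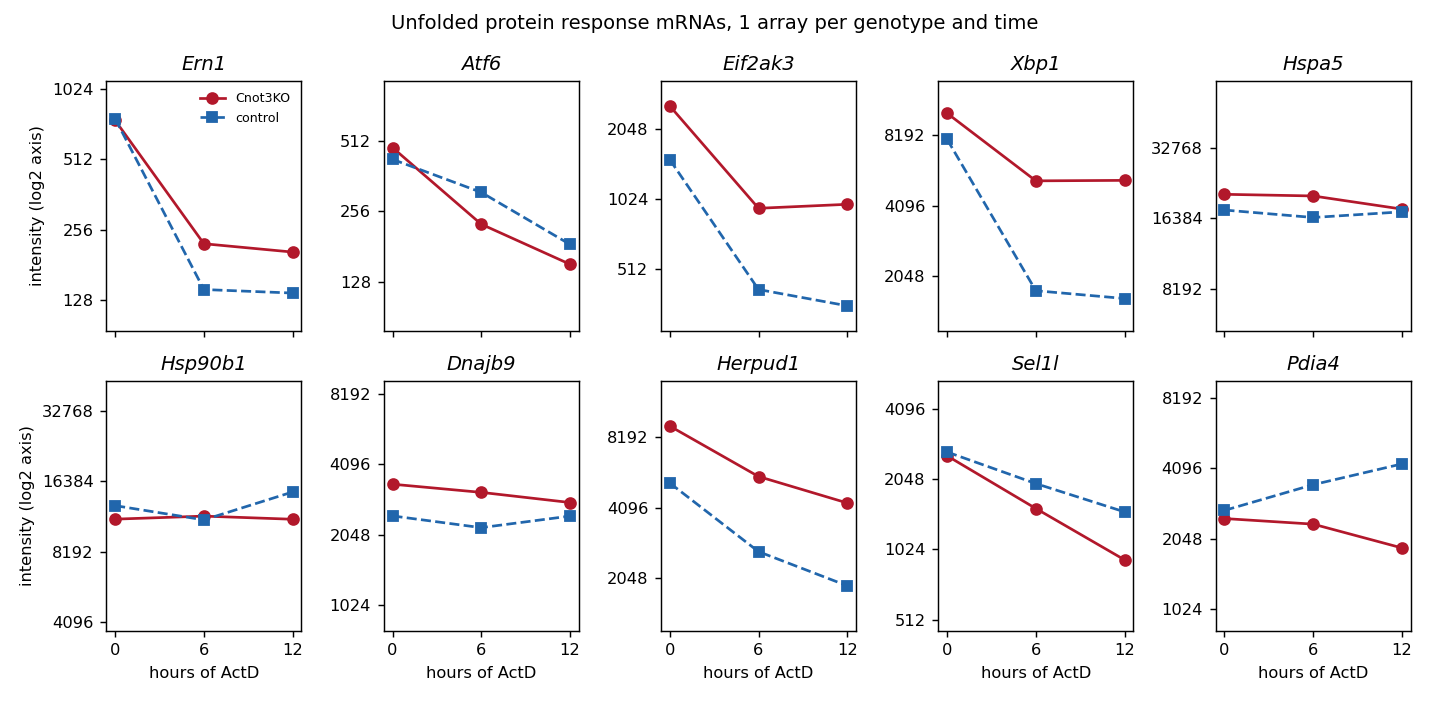
Array intensity on a log2 axis against hours of ActD for each of the 10 genes, with Cnot3KO as circles and control as squares, 1 array per point and every panel spanning the same number of doublings. Ern1, Eif2ak3 and Xbp1 are far lower at 6 h than at 0 h, Hspa5 and Dnajb9 stay nearly level, Hsp90b1 is highest at 12 h in control cells, and Pdia4 is the gene whose lines part in opposite directions.

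Without ActD, 2 of the 10 genes differed between the genotypes by more than 1.5-fold, and both were higher in Cnot3KO cells. They were Herpud1, at 1.75-fold, and Eif2ak3, at 1.70-fold, and no member was lower by that amount. Over all 16110 genes considered at 0 h the same limit was passed by 6.87% upward and 2.99% downward, 1107 and 482 genes (826 and 652 when the arrays were centred on Gapdh). The median difference of the 10 genes was 0.19 on the log2 scale, against 0.04 over all genes. With 1 array per genotype this comparison has no error of its own. As a guide to technical spread, probe sets of the same gene differed in it by an SD of 0.24 over 4079 genes.

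Over the 3 times together, 5 members were higher in Cnot3KO cells at each time (Eif2ak3, Xbp1, Hspa5, Dnajb9 and Herpud1), 2 were lower at each time (Sel1l and Pdia4) and 3 were not of one sign. Of all 16499 genes kept, 30.5% were higher and 29.2% lower at each time. No member passed the genotype test (limma with time as a factor, Benjamini-Hochberg adjustment over all genes, threshold 0.05), which called 0.703% of genes higher and 0.285% lower. Herpud1, Eif2ak3 and Xbp1 lay just beyond the threshold, at adjusted p of 0.0526, 0.0526 and 0.0612, where the smallest over all genes was 0.0499. At an unadjusted p under 0.05, 4 members were higher (Eif2ak3, Xbp1, Dnajb9 and Herpud1) and 1 was lower (Pdia4), while 22.4% of all genes were higher and 11% lower. The times stand in for replicates in this test, which leaves 2 residual degrees of freedom. With a trend of the variance on intensity, Eif2ak3, Xbp1 and Herpud1 passed, and without the 0 h arrays these did with Ern1 upward and Pdia4 downward, whereas without the filter on intensity no gene of the array did. The median genotype difference was 0.29 for the members and -0.03 for all genes.

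**Figure D2:**
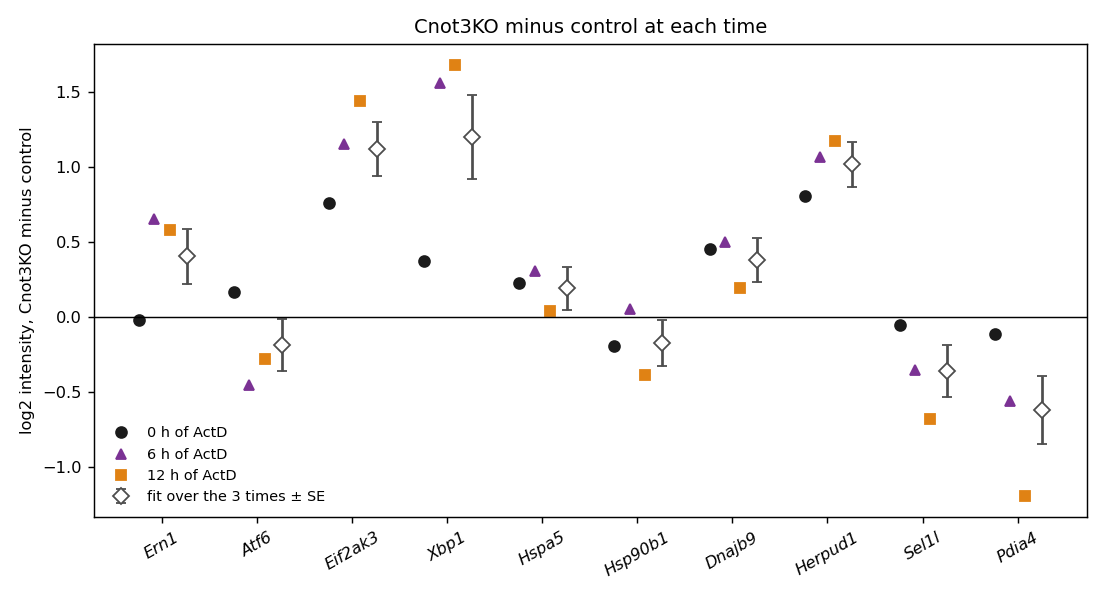
Log2 intensity in Cnot3KO minus control cells for each gene at 0, 6 and 12 h of ActD, 1 pair of arrays per filled point, with the fitted difference over the 3 times and its SE as an open diamond. Eif2ak3, Xbp1 and Herpud1 lie above 0 at every time, with fitted differences of 1.12, 1.20 and 1.02, and Pdia4 moves away from 0 to -1.19 at 12 h.

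Among the sensors, Eif2ak3 stood apart between the genotypes. Its intensity was 2556, 934 and 972 in Cnot3KO cells at 0, 6 and 12 h of ActD, against 1506, 420 and 358 in control cells. At every time the Cnot3KO array was the higher, by 1.70-fold, 2.22-fold and 2.71-fold. The fitted genotype difference was 1.12 ± 0.18 on the log2 scale (SE, adjusted p = 0.0526, limma). Over 12 h the mRNA fell by 2.07 in control cells (adjusted p = 0.0480, limma), and the change was -1.40 in Cnot3KO cells (adjusted p = 0.276). Both other sets of this gene were below the array median on every array, so Eif2ak3 rests on a single bright set, and the brighter of them differed by 0.56 at 0 h, short of 1.5-fold.

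On the set used, Ern1 was alike in the genotypes before ActD and stood far lower at 6 h in both. It read 751, 223 and 206 in Cnot3KO cells, against 763, 142 and 137 in control cells. The difference at 0 h was -0.02 on the log2 scale, whereas at 6 and 12 h it was 0.65 and 0.58, the Cnot3KO arrays being the higher. At 6 h 29.7% of the starting intensity was left in Cnot3KO cells and 18.6% in control cells. The genotype difference of 0.40 ± 0.18 (SE) did not pass (adjusted p = 0.186, limma). The other Ern1 sets were dimmer, and the next brightest had a genotype difference of -0.31, so the probe set decides the direction for Ern1. That set read 131, 107 and 106 in Cnot3KO cells, against 135, 131 and 158 in control cells. Another set above the median on all arrays changed by -0.73 in Cnot3KO and -0.63 in control cells over 12 h. The steep fall was thus seen on the set used alone.

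Atf6, the sensor that becomes a transcription factor, read 478, 225 and 152 in Cnot3KO cells, against 426, 308 and 185 in control cells. The Cnot3KO array was slightly the higher at 0 h and the lower at both later times. In control cells it fell by 1.21 over 12 h (adjusted p = 0.0241, limma), and in Cnot3KO cells the change was -1.66 (adjusted p = 0.0522). The other Atf6 sets, both above the median on all arrays, had genotype differences of 0.38 and 0.41, opposite in sign to the -0.19 of the brightest. The direction for Atf6 is therefore no firmer than that for Ern1.

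Xbp1, the transcription factor that IRE1 activates by splicing, had the widest gap between the genotypes among the 10 genes after ActD. It read 10189, 5242 and 5267 in Cnot3KO cells, against 7882, 1778 and 1647 in control cells. The genotypes were 1.29-fold apart before ActD and 2.95-fold and 3.20-fold apart at 6 and 12 h, the Cnot3KO arrays being the higher. In Cnot3KO cells 51.4% of the intensity was left at 6 h and 51.7% at 12 h, against 22.6% and 20.9% in control cells. Nearly all of the loss thus fell within the first 6 h in both genotypes. The genotype difference was 1.20 ± 0.28 (SE, adjusted p = 0.0612, limma), and over 12 h Xbp1 fell by 2.26 in control cells (adjusted p = 0.0414). The next brightest Xbp1 sets gave genotype differences of 1.37 and 1.24, and a dim set gave 0.42. These 3 bright sets carry suffixes for sequence shared between transcripts, and the arrays do not tell spliced from unspliced Xbp1 mRNA.

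Among the ER chaperones, Hspa5 was nearly level on the set used. It encodes BiP, the Hsp70 chaperone of the ER that also holds the sensors inactive. Its intensity was 20710, 20378 and 17908 in Cnot3KO cells, against 17741, 16489 and 17429 in control cells. Hspa5 was higher in Cnot3KO cells at each time, as were 30.5% of all genes, but the gap at 12 h was only 1.03-fold. The genotype difference was 0.19 ± 0.14 (SE, adjusted p = 0.378, limma), and 86.5% of the starting intensity in Cnot3KO cells and 98.2% in control cells was present at 12 h. The dimmest Hspa5 set had a genotype difference of -0.47, so the sign is not settled.

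Hsp90b1, which encodes the ER member of the Hsp90 family (Grp94), read 11302, 11643 and 11290 in Cnot3KO cells, against 12906, 11222 and 14763 in control cells. On the set used the genotypes crossed at 6 h, and the fitted difference of -0.18 ± 0.15 (SE) was near its error (adjusted p = 0.445, limma). The second Hsp90b1 set read 6120, 7057 and 6817 in Cnot3KO cells, against 5304, 6536 and 9144 in control cells. There Cnot3KO was higher at 0 and 6 h and lower at 12 h. Dnajb9, a co-chaperone of BiP (ERdj4) that helps to keep IRE1 off, read 3373, 3112 and 2817 in Cnot3KO cells, against 2468, 2199 and 2464 in control cells. Dnajb9 was higher in Cnot3KO cells at each time, as were 30.5% of all genes. Its genotype difference was 0.38 ± 0.15 (SE, unadjusted p = 0.0419 and adjusted p = 0.135, limma), with no second probe set to check it.

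Pdia4, a protein disulfide isomerase that forms and rearranges disulfide bonds, was the only member whose values at both 6 and 12 h lay on opposite sides of the 0 h value in the genotypes. It read 2499, 2366 and 1872 in Cnot3KO cells, against 2708, 3487 and 4277 in control cells. Before ActD the genotypes were within 1.08-fold of each other, and at 12 h the Cnot3KO array was 2.28-fold the lower. The change over 12 h was -0.42 ± 0.20 in Cnot3KO cells and 0.66 ± 0.20 in control cells (SE, adjusted p = 0.367 and 0.0661, limma). Their difference was -1.08 ± 0.29 (SE), with an unadjusted p of 0.0100 and an adjusted p of 0.189. The other Pdia4 set was below the median on every array.

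Herpud1 encodes a membrane protein that organises the ERAD ubiquitin ligase around Hrd1. It read 9142, 5567 and 4291 in Cnot3KO cells, against 5220, 2659 and 1900 in control cells. The Cnot3KO array was higher at each time, by 1.75-fold, 2.09-fold and 2.26-fold. The genotype difference was 1.02 ± 0.15 (SE, adjusted p = 0.0526, limma), and the second Herpud1 set also gave 1.02. Over 12 h the mRNA fell by 1.46 in control cells (adjusted p = 0.0164), and in Cnot3KO cells the change was -1.09 (adjusted p = 0.0958).

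Sel1l, the adaptor that passes substrates to Hrd1, read 2573, 1532 and 925 in Cnot3KO cells, against 2672, 1958 and 1483 in control cells. The genotypes were alike before ActD, and the Cnot3KO array was below the control array by differences of -0.35 at 6 h and -0.68 at 12 h. Over 12 h it fell by 0.85 in control cells (adjusted p = 0.0331, limma), and the change in Cnot3KO cells was -1.48 (adjusted p = 0.0502). The difference between them was -0.63 ± 0.27 (SE, unadjusted p = 0.0635, adjusted p = 0.30). All 4 other Sel1l sets put Cnot3KO below control over the 3 times, with differences of -0.30 to -0.64, but 3 of them had positive changes in control cells, of 0.51 to 0.93. The control change of Sel1l thus depends on the probe set, and the sign of its genotype difference does not.

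Across the 10 genes, the change over 12 h was negative for all 10 in Cnot3KO cells (-0.0015 for Hsp90b1, so level) and for 8 in control cells, with medians of -1.02 and -1.03 against 0.08 and 0.15 over all genes. In control cells 5 members fell by the test (Atf6, Eif2ak3, Xbp1, Herpud1 and Sel1l) and none rose, where 14.5% of all genes fell and 7.68% rose, 2400 and 1267 genes (2010 and 2612 when centred on Gapdh). Without the control array at 0 h none of the 5 passed, and without that at 12 h only Xbp1 of them did, beside Ern1. In Cnot3KO cells no member passed in either direction, where 0.182% of all genes fell and 0.182% rose. Atf6 and Sel1l passed there, downward, without the Cnot3KO array at 6 h or without any 1 of the control arrays. The difference between the genotypes in change passed for 0% of all genes and so for no member. At an unadjusted p under 0.05 that difference was below 0 for 1 member, Pdia4, and above 0 for none, while 4.95% of all genes were below and 12.8% above. For Ern1, Eif2ak3 and Xbp1 the values on the sets used levelled off after 6 h, which a straight line on hours describes poorly, and their SE of the difference was 0.79 to 1.01.

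**Figure D3:**
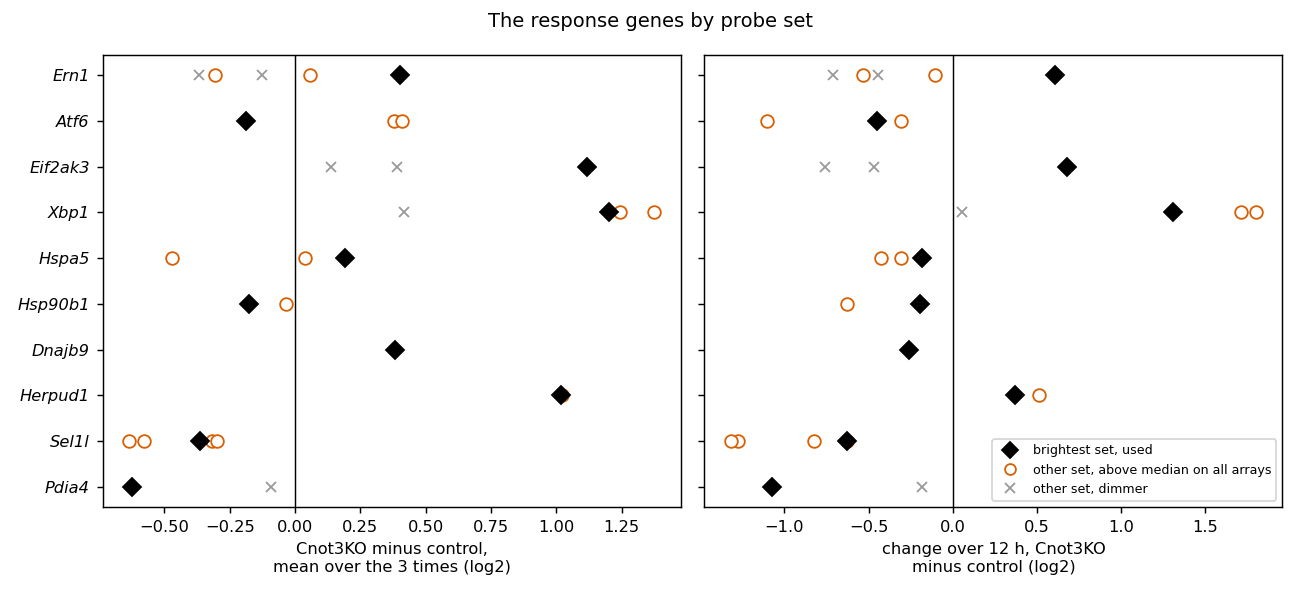
Mean log2 difference between Cnot3KO and control cells over the 3 times (left) and log2 change over 12 h of ActD in Cnot3KO minus that in control cells (right) for every probe set of the 10 genes. The sets used are filled diamonds, other sets above the array median on all 6 arrays are open circles, and dimmer sets are crosses. Xbp1, Herpud1 and Sel1l keep their sides on all bright sets in both panels, and the bright sets of Ern1, Atf6 and Hspa5 lie on both sides of 0 on the left.

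Of the 14 other probe sets that were above the median on all arrays, 10 had the same sign of genotype difference as the set used and 4 the opposite sign. For the difference in change under ActD 12 shared the sign and 2, both of Ern1, did not. For the change in control cells alone 7 shared it and 7 did not, and for that in Cnot3KO cells 12 did and 2 did not.

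The wider pathway was read from 8 lists with 136 further genes, of which 132 were kept. The targets of the PERK branch had the highest median of these lists without ActD. They include the stress-induced transcription factors and enzymes downstream of ATF4. Of 12 genes, 6 were over 1.5-fold higher in Cnot3KO cells at 0 h and none was lower, against 6.87% and 2.99% of all genes. Their median difference was 0.49. At all 3 times 8 were higher, against 30.5% of all genes. The 6 were Chac1, Ddit3, Trib3, Atf3, Nupr1 and Ppp1r15a. With the second brightest probe set, 3 of the 9 with such a set were past 1.5-fold. Chac1, an enzyme that breaks down glutathione, read 741, 156 and 133 in Cnot3KO cells, against 294, 69.4 and 70.4 in control cells. It was the only gene of the pathway lists to pass the genotype test, at 1.14 ± 0.15 (SE, adjusted p = 0.0499, limma), and was not called without the filter on intensity. Ddit3, which encodes the transcription factor CHOP, read 950, 638 and 712 in Cnot3KO cells, against 457, 399 and 722 in control cells. The gap at 0 h was absent at 12 h, and its genotype difference of 0.57 ± 0.23 (SE) did not pass (adjusted p = 0.148). Atf4, the transcription factor that PERK signalling brings to translation, fell by 2.69 over 12 h in control cells (adjusted p = 0.0409, limma), and its genotype difference was 1.05 (adjusted p = 0.0621).

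Over all genes 6.87% were past 1.5-fold higher at 0 h and 2.99% lower. Of the 17 other ER chaperones and co-chaperones, none was past that limit in either direction. Their change over 12 h was more negative or less positive in Cnot3KO than in control cells for all 17 on the sets used, with a median difference of -0.68, where 8721 of the 16499 genes and a median of -0.04 were found overall. Medians were -0.19 in Cnot3KO cells and 0.55 in control cells. None of the differences passed after adjustment. At an unadjusted p under 0.05 (limma) 5 were below 0 and none above, where 4.95% of all genes were below and 12.8% above. The direction was not particular to the chaperones, since the difference was below 0 for 97 of all 132 pathway genes kept. It was below 0 for 4 of the 8 other sensors and proteases and for 6 of the 12 PERK targets. Stellate cell and fibroblast markers had the same direction, with the difference below 0 for 9 of the 10 kept, a median of -0.77, and median changes of -0.69 in Cnot3KO cells and 0.22 in control cells. None of these passed after adjustment. At an unadjusted p under 0.05, 5 were below 0 and none above, against the same shares of all genes. The part of these markers in the chaperone values was not tested. Hyou1, a large Hsp70-like chaperone, and Sil1, which exchanges the nucleotide on BiP, rose by 0.88 and 0.75 in control cells (adjusted p = 0.0330 and 0.0466, limma), and in Cnot3KO cells their changes were -0.20 and -0.50. Creld2, an ER stress-induced protein, read 2594, 3056 and 2157 in Cnot3KO cells, against 1782, 2590 and 2889 in control cells. Fkbp11, a prolyl isomerase, read 2242, 2636 and 2365 in Cnot3KO cells, against 1653, 2216 and 2479 in control cells. Both were higher in Cnot3KO cells at 0 h and lower at 12 h.

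For 11 of the 12 oxidative folding enzymes the change was lower in Cnot3KO cells, with a median difference of -0.51, where 8721 of the 16499 genes were below 0. None of these differences passed after adjustment (smallest adjusted p = 0.197, limma). At an unadjusted p under 0.05, 4 were below 0 and none above, where 4.95% of all genes were below and 12.8% above. In control cells Ero1a, an oxidase that recharges disulfide isomerases, Prdx4, a peroxiredoxin, and Erp29 rose by 1.23, 0.80 and 0.77 (adjusted p = 0.0158, 0.0446 and 0.0453, limma), and Txndc11 fell by 1.77 (adjusted p = 0.0119). Prdx4 read 3145, 3764 and 4070 in Cnot3KO cells, against 3792, 4537 and 6586 in control cells, and was highest at 12 h in both. Txndc5, another disulfide isomerase, read 2551, 2541 and 2125 in Cnot3KO cells, against 3159, 3536 and 4040 in control cells, with a genotype difference of -0.57 ± 0.17 (SE, adjusted p = 0.0883).

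The 23 other ERAD genes did not share 1 direction. The difference in change spanned -1.30 to 1.75. It was below 0 for 14, where 8721 of the 16499 genes were. Herpud2, a relative of Herpud1, and Syvn1, which encodes the Hrd1 ligase itself, had control changes of -1.58 and -1.96 that passed the test (adjusted p = 0.0163 and 0.0337, limma), as did Edem3, Derl2 and Faf2 with negative changes. Erlec1 and Rnf5 rose in control cells by 1.03 and 1.19 (adjusted p = 0.0237 and 0.0195). Syvn1 read 1381, 905 and 1068 in Cnot3KO cells, against 1141, 344 and 293 in control cells. Its genotype difference of 1.18, like the 1.02 of Herpud2, did not pass (adjusted p = 0.0704 and 0.0982). Ubxn4, which recruits the Vcp ATPase to the ER, was the only ERAD gene outside the members past 1.5-fold at 0 h. It was higher in Cnot3KO cells, as were 6.87% of all genes by that limit. Ubxn4 read 2983, 3100 and 3332 in Cnot3KO cells, against 1888, 1665 and 1216 in control cells. Edem2, which trims mannose from substrates, read 814, 753 and 650 in Cnot3KO cells, against 546, 636 and 603 in control cells.

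Other membrane sensors and their proteases numbered 8, with 2 past 1.5-fold at 0 h. Creb3l3 (CREBH), a liver transcription factor cut from the ER membrane, read 2260, 1843 and 2195 in Cnot3KO cells, against 1455, 1376 and 1324 in control cells (genotype difference 0.60 ± 0.15, SE, adjusted p = 0.0644, limma). Creb3 read 3185, 3629 and 4209 in Cnot3KO cells, against 2075, 1711 and 1564 in control cells (1.04 ± 0.19, SE, adjusted p = 0.0530). Both were higher in Cnot3KO cells on every pair of arrays. Atf6b rose by 0.75 and Creb3l2 fell by 2.39 in control cells (adjusted p = 0.0481 and 0.0168).

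Among 29 genes of the translocon, signal peptidase and glycosylation, 18 were lower in Cnot3KO cells at all 3 times and 3 were higher, where 29.2% and 30.5% of all genes were. Their difference in change was below 0 for 22, with a median of -0.38, where 8721 of the 16499 genes were below 0. Srp68, a subunit of the signal recognition particle, read 2495, 2159 and 1926 in Cnot3KO cells, against 1377, 719 and 310 in control cells, and Sec11c, a signal peptidase subunit, read 893, 1118 and 884 in Cnot3KO cells, against 1554, 1841 and 2308 in control cells. Among 25 genes of ER to Golgi traffic, 13 were lower and 5 were higher at all 3 times, against the same shares of all genes. For 18 of the 25 the difference in change was below 0, with a median of -0.26. Tmed10, a cargo receptor, read 1061, 1426 and 1231 in Cnot3KO cells, against 1843, 2580 and 3250 in control cells. Sec24a, a coat subunit, read 2630, 1608 and 1198 in Cnot3KO cells, against 4148, 1237 and 686 in control cells, the order of the genotypes turning after 0 h. The genotype differences of Srp68, Sec11c and Tmed10 were 1.69, -0.97 and -1.02, with adjusted p of 0.0541, 0.0538 and 0.0526 (limma). Srp68, Sec24a, Sec24b and Sec24d fell in control cells, with changes of -2.15, -2.60, -2.50 and -2.28 (adjusted p = 0.00772, 0.00930, 0.0194 and 0.00757). Sec24d fell in Cnot3KO cells too, where its change was -1.81 (adjusted p = 0.0452).

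Substrates of the RNA decay that IRE1 carries out were 6, of which Scara3 was past 1.5-fold higher and Pdgfrb lower at 0 h. Over all genes 6.87% were higher and 2.99% lower by that limit. The difference in change was below 0 for 5 of the 6, with a median of -0.77. Scara3 was dim, at 36.3 in Cnot3KO and 21.0 in control cells at 0 h. Pdgfrb, a receptor of stellate cells and fibroblasts, is itself 1 of the markers of those cells whose sum was lower in Cnot3KO cells. It read 321, 79.0 and 24.8 in Cnot3KO cells, against 587, 206 and 79.9 in control cells. The last Cnot3KO value lies near the 20th percentile of its array, 20.2. Pdgfrb fell in both genotypes, with changes of -3.69 in Cnot3KO cells and -2.88 in control cells (adjusted p = 0.0452 and 0.00757, limma). Col6a1, a collagen of the same cells, read 213, 184 and 135 in Cnot3KO cells, against 255, 274 and 301 in control cells. Pmp22 fell by 1.53 in control cells (adjusted p = 0.0264).

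**Figure D4:**
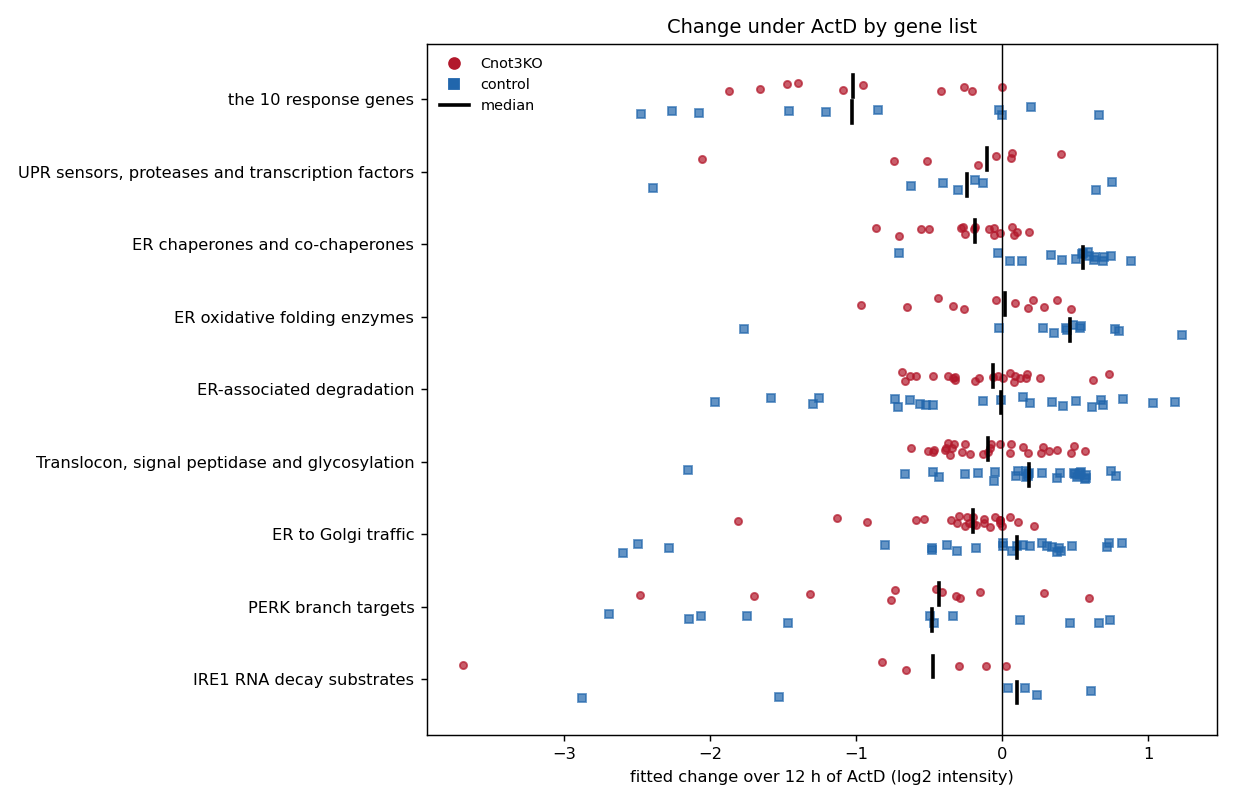
Fitted log2 change over 12 h of ActD for each gene of the response and of the 8 pathway lists, with Cnot3KO as circles above control as squares in every row and black bars at the medians. The chaperone list has its medians at -0.19 in Cnot3KO and 0.55 in control cells, whereas those of the 10 response genes coincide at about -1.02 and -1.03.

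Besides Hspa5 and Hsp90b1, 8 of the 104 pathway genes with a promoter window held ERSE, which were Calr, Canx, Creld2, Dnajc3, Pdia6, Ero1b, Derl3 and Syvn1. Over these 10 genes the median change was -0.15 in Cnot3KO and 0.31 in control cells, and the difference was below 0 for 9, Syvn1 being the exception at 1.59. Derl3, an ERAD channel subunit, read 441, 502 and 317 in Cnot3KO cells, against 319, 643 and 566 in control cells. These genes share most of their number with the chaperone and folding lists, so the count is not a separate finding. Of the same 104 pathway genes, 2 held ERSE-II and 9 held TGACGTGG, against 0.0365% and 0.676% of all promoters.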

How the data were processed

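Total RNA of 6 samples was hybridised to Affymetrix mouse expression arrays. The authors summarised the probes with Robust Multi-array Average (RMA; software and version not given in the sources used here), and the deposited values are intensities on a linear scale, 1 per probe set. Their log2 was taken here. RMA equalises the arrays, so values are relative within an array. Of 45037 probe sets, with 0 missing values, 34945 carried 1 gene symbol in the platform annotation, 932 several and 9160 none, and the 932 and 9160 named no gene. All deposited columns were used (0 left out). A gene was kept if its brightest set exceeded the 20th percentile of at least 1 array, which gave 16499 genes, and 16110 at 0 h.

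R 4.3.3 and limma 3.58.1 fitted log2 intensity on genotype and time as a factor, and on hours within each genotype, with Benjamini-Hochberg adjustment over all genes kept. A change over 12 h is the slope times 12 h. Both models have 2 residual degrees of freedom. They were run on simulated data with independent noise, where added genotype differences were constant over time and added changes lay on a straight line. Levelling off after 6 h was not among the added changes, so the run does not speak for such values. There are no replicates, so precision is limited by the number of arrays. Probe sets of one gene differed by an SD of 0.32 in the genotype difference and 0.42 in the difference in change.

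The members and the pathway and marker lists were chosen with earlier results of these data known. Beyond the 10 members and Cnot3, 2 genes of each pathway list were named by rule. They have the largest difference at 0 h among those above the array median. By the same rule, pathway genes past the genotype test or the test of the difference in change were named. Others were named after their values were seen. These are the PERK targets past 1.5-fold, Atf4's genotype value, Scara3 and the genes with ERSE. Pathway genes past the test of the change under ActD in either genotype belong with them. Promoter windows are RefSeq's (GRCm38.p6). Alternatives were other filters, probe sets, centrings, a variance trend, a 2-fold limit and leaving out arrays.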

Additional observations from a re-analysis of the deposited data

Results flagged for a closer look

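For 11 of the genes named, the values at both 6 and 12 h of ActD lay on one side of the 0 h value in Cnot3KO cells and on the other side in control cells. The difference in change over 12 h (Cnot3KO minus control, log2) was tested with limma and passed for none of them after adjustment over all genes. Among the response genes this was Pdia4, at -1.08 (unadjusted p = 0.0100, adjusted p = 0.189). Of the pathway genes, Creb3 and Ubxn4 were on the positive side, at 0.81 and 0.79 (adjusted p = 0.239 and 0.250). Txndc5, Edem2 and Col6a1 were on the negative side, at -0.62, -0.47 and -0.90 (adjusted p = 0.319, 0.429 and 0.223), as were Hyou1, Sil1 and Nupr1, at -1.08, -1.25 and -1.03 (adjusted p = 0.189, 0.181 and 0.251). Ero1b was at -0.93 and the dim Scara3 at -0.86 (adjusted p = 0.210 and 0.299). For some of the 11 a side was no more than a level value. At 6 h Hyou1 and Txndc5 had changed by -0.0050 and -0.0056 in Cnot3KO cells. In control cells Scara3 changed by 0.042 over 12 h. The share of all genes that meet this rule was not counted. Hyou1, Sil1, Nupr1, Ero1b and Scara3 were named after their values were seen. Groups of 1 array allow no search for single outlying samples.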

How the results depend on the processing

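Before ActD, Herpud1 stayed past 1.5-fold under every filter, probe set and centring tried, as did Eif2ak3 but for its second brightest set (0.56), where Atf6 passed instead (0.89), and at a 2-fold limit 0 members, 2 PERK targets and 295 genes passed. With the second brightest probe set 702 genes passed 1.5-fold, and of the PERK targets 3 of 9 with such a set. Centring on Gapdh, read from a set that also lists its pseudogenes, moved every genotype difference over the 3 times by -0.11 and every difference in change by -0.21.

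The genotype test, with 0 members and 163 genes, called 0 genes without a filter, with a filter at the 50th percentile or centred on ribosomal protein genes, 3 members and 1625 genes with the mean of probe sets, 1 and 348 with the second brightest set, 2 and 649 without sets of shared sequence, 3 and 2639 centred on Gapdh, and 3 and 2063 with a variance trend. Leaving out a time gave 0 to 5 members and 0 to 5810 genes. Chac1 was not called in the first 3 of these settings or without the 6 h or the 12 h arrays. In Cnot3KO cells the change passed for 2 members and 156 genes without a filter, 2 and 169 centred on Gapdh, 2 and 202 with a trend, 114 genes with the mean, 12 with the second set and 0 with the 50th percentile or ribosomal centring, and leaving out an array gave 0 to 2 members and 0 to 568 genes. In control cells 2 members passed with the mean of sets, 3 with the second set (1334 genes), without shared sequence or with ribosomal centring, and leaving out an array gave 0 to 6 members and 0 to 5612 genes. The difference in change was called for 0 to 2 genes without an array. All 10 chaperones with a second set had the lower change in Cnot3KO cells there too, and leaving out an array gave 15 to 17 of 17 on the sets used.

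Signs turned as follows. With the mean of sets the genotype difference was -0.069 for Ern1, 0.20 for Atf6 and -0.082 for Hspa5, the difference in change -0.24 for Ern1 and -0.18 for Eif2ak3, the change in Cnot3KO cells 0.077 for Hsp90b1, and the change in control cells 0.21 for both Hspa5 and Sel1l. With the second set the genotype difference was -0.31 for Ern1 and 0.38 for Atf6, the difference in change -0.53 for Ern1 and -0.76 for Eif2ak3, the change in Cnot3KO cells 0.16 for Hsp90b1 and 0.31 for Pdia4, and that in control cells 0.23 for Ern1, 0.057 for Atf6, 0.28 for Eif2ak3, 0.083 for Hspa5 and 0.92 for Sel1l. Centred on Gapdh, the control change was 0.16 for Hspa5 and 0.18 for Dnajb9. Leaving out an array, the difference in change ranged from -1.77 to 2.98 for Ern1, -0.97 to 0.070 for Atf6, -0.93 to 2.29 for Eif2ak3, -0.73 to 3.34 for Xbp1, -0.37 to 0.0015 for Hspa5, -0.79 to 0.40 for Hsp90b1, -0.59 to 0.073 for Dnajb9 and -0.12 to 0.86 for Herpud1. The change in Cnot3KO cells ranged from -2.90 to 0.11 for Eif2ak3, -1.92 to 0.014 for Xbp1 and -0.089 to 0.086 for Hsp90b1, and that in control cells from -0.21 to 0.16 for Hspa5, -0.40 to 0.79 for Hsp90b1 and -0.33 to 0.33 for Dnajb9. The lowest and highest differences of Ern1, Eif2ak3 and Xbp1 came without the control array at 0 h and at 12 h. The cause was not tested. The genotype test pairs Cnot3KO and control arrays by time. Beyond that, no paired analysis was possible because the labels carry no replicate numbers.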
